A study of Mus musculus with 3 samples.

Results

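The 10 genes described here belong to the BMP and TGF-beta pathways and were followed by symbol through single-cell libraries of mouse cochlear organoids, 10 of the 31053 genes in the deposited gene tables. They were the ligands Bmp2 and Bmp4, the secreted antagonist Fst, the target genes Id1, Id2 and Id3, the inhibitory Smads Smad6 and Smad7, and the matrix genes Tgfbi and Ltbp2. All 10 were found in all 3 libraries, and every one had at least 1 unique molecular identifier (UMI, 1 captured RNA molecule) in every class of cells and library described here.

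The organoids were grown from Lgr5+ cochlear progenitor cells of C57BL/6 mice, and 1 library was made per stage. The expansion library came from passage 2 on day 8, in a medium with IGF at 50 ng/mL, EGF at 20 ng/mL and bFGF at 10 ng/mL, and with CHIR99021 at 3, Y-27632 at 10 and LPA at 2.5 in a unit that the labels give as um. The other libraries came from organoids expanded in the same way and then moved to a medium with bFGF, BDNF, Shh, A83-01 and RA, collected on day 5 and on day 25. LY4115775 was present through the first 5 days only, so the day 5 and day 25 libraries differ both in time and in this agent. A83-01, which blocks the type I receptors of TGF-beta, activin and nodal and leaves BMP receptors largely free, was in the medium of both differentiation libraries and is not listed for expansion. Medium, time in culture and library cannot be told apart in this design.

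BMP ligands bind paired type I and type II receptors, which phosphorylate Smad1, Smad5 and Smad9. TGF-beta and activin act in the same way through Smad2 and Smad3. The Id genes, which encode inhibitors of basic helix-loop-helix factors such as the hair cell factor ATOH1, are direct targets of BMP Smads. Smad6 and Smad7 are induced by the pathway and damp it, Fst binds activins and some BMPs, and Ltbp2 and Tgfbi encode extracellular matrix proteins. In the developing cochlea, BMP signalling from the outer side of the duct helps to pattern the sensory epithelium.

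The stretches upstream of 4 of these genes are shown because the results below turn on BMP targets and because Bmp4 and Smad6 moved together. They were read from RefSeq (GRCm38.p6), whose promoter table held 6 of the 10 genes: Bmp4, Id2, Id3, Smad6, Tgfbi and Ltbp2. Each window covers the 250 bases before the start, and bases that GENCODE places in an exon were left off. The whole Id3 window is exonic in GENCODE and is not printed. Capitals mark GGCGCC, a GC-rich motif bound by BMP Smads, and GTCT or its reverse complement AGAC, the core Smad box. The Bmp4 stretch is chr14:46390670-46390919 (minus strand), Id2 is chr12:25096254-25096342 (minus strand, the first 89 bases of its window, intronic in the longer GENCODE transcript), Smad6 is chr9:64022060-64022309 (minus strand), and Tgfbi is chr13:56609336-56609522 (plus strand, the first 187 bases).
Bmp4: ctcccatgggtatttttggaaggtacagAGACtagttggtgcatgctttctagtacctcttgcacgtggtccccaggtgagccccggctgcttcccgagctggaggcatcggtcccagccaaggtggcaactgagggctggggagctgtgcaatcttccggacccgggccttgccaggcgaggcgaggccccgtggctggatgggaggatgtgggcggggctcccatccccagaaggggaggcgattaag
Id2: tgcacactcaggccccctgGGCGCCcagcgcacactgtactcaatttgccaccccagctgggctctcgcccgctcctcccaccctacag
Smad6: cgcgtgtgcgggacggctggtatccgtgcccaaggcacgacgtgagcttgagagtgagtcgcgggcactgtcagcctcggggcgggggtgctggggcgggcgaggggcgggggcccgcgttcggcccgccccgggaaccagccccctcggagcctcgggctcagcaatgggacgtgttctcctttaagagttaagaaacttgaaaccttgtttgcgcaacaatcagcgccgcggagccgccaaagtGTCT
Tgfbi: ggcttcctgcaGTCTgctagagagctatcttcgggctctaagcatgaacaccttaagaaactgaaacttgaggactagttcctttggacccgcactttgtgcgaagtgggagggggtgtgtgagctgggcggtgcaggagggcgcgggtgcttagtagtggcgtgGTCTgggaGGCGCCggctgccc
GGCGCC occurred once in the windows of Id2 (231 bases before the start) and Tgfbi (77 bases before it) and was not in those of Bmp4, Id3, Smad6 and Ltbp2. It was present in 9.59% of 32851 promoter windows of this length. GTCT, searched on both strands, was in all 6 windows, as it was in 82.9% of all windows, and the longer palindrome GTCTAGAC was in none of the 6 and in 0.167% of all. A match is a description of letters, not of binding. Over their whole length the 6 windows held 61.6% (Ltbp2) to 66.8% (Smad6) G and C, against a median of 52.4% over all windows.

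Cells were placed in 3 classes by gates on raw UMIs. Epcam-positive cells held at least 1 UMI of Epcam, an epithelial adhesion gene, and numbered 17298 in expansion, 6951 on day 5 and 3605 on day 25. Pou4f3-positive cells held at least 1 UMI of Pou4f3, a hair cell transcription factor, and numbered 283, 678 and 1837. Otor-high cells held Otor, a gene of the otic mesenchyme, at 2000 UMIs or more per 1000000 UMIs of the cell (counts scaled in this way are written CPM below) and numbered 2376, 4281 and 349. The hair cell marker list (10 genes, among them Otof, Tomt and Acbd7) summed to 3110, 10988 and 11885 CPM in Pou4f3-positive cells and to between 82.9 and 490.4 CPM in the other classes. The epithelial list of 8 genes summed to 485.4, 529.1 and 3492 CPM in Epcam-positive cells and to at most 56.6 CPM in Otor-high cells. Pou4f3-positive cells held 357.2, 345.5 and 549.3 CPM of it, so the list set them apart from Epcam-positive cells mainly on day 25. Otor-high cells carried Pou3f4 (149.4, 293.6 and 234.8 CPM) and Tbx18 (164.5, 231.3 and 261.4 CPM), which mark otic mesenchyme, but Dcn and Lum of the mesenchyme list were higher in Epcam-positive cells, so that list summed to more there (677.4, 2406 and 1493 CPM) than in Otor-high cells (398.0, 939.2 and 838.0 CPM), and Col1a2 and Postn were at 0.194 and 0 CPM in expansion Otor-high cells. The 5-gene endothelial list summed to 605.3 to 774.8 CPM in Otor-high cells, mostly through Emcn (588.8 to 770.8 CPM). Kdr was at 16.0, 27.2 and 2.92 CPM there, and Pecam1, Cdh5 and Cldn5 were at or under 1.10 CPM. The 4 pericyte genes summed to 7.66, 96.8 and 135.8 CPM in Otor-high cells, mostly Pdgfrb, and the 5 glial genes to 170.1, 333.7 and 220.4 CPM in Epcam-positive cells, mostly Sox10. The 6 neuronal genes reached 859.1 CPM in day 25 Pou4f3-positive cells (mostly Nefm) and 195.0 CPM in day 5 Otor-high cells (Syt1 and Gap43). Macrophage, melanocyte and erythroid lists stayed at or under 2.47 CPM in every class.

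The libraries held 26048, 13201 and 6106 kept cells with medians of 4717, 5853 and 8474 UMIs and 187060578, 131821582 and 72329429 UMIs in all. Shared cell barcodes among kept cells numbered 109 between expansion and day 5, 47 between expansion and day 25, and 21 between day 5 and day 25. Each group is 1 library, so no test between groups is possible, and every interval below is a 95% interval for counting error only. A gene was called higher or lower when CPM + 1 differed by at least 2-fold and the gene reached 20 CPM in either sum. The Pou4f3 gate rests on a single UMI in many cells: such cells were 41.7% of the class in expansion, 52.2% on day 5 and 16.4% on day 25. Day 5 results for this class are therefore also given for cells with at least 2 Pou4f3 UMIs (165, 324 and 1535 cells).

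In Epcam-positive cells, 8 of the 9 measurable genes were higher on day 5 than in expansion and none was lower, against 14.5% of all genes called higher and 10.5% called lower. With TMM scaling, the background split was 10.5% higher and 14.4% lower, and the call of Id2 was lost. The 9 genes had a median log2 ratio of 2.59, against 0.10 over all genes. From day 5 to day 25 in these cells, 4 of the 9 were lower (Bmp4, Id1, Id3 and Smad6) and none was higher, against 5.33% lower and 18.5% higher over all genes (9.90% and 12.6% with TMM scaling, where Id2 was also called lower), with medians of -0.88 and 0.27. The genes thus stood at their highest on day 5 with a few exceptions that are described by role below: Fst went on upward, Ltbp2 kept its day 5 level on day 25, Tgfbi was within 2-fold in both steps, and Bmp2 was under 20 CPM.

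In Otor-high cells, 6 of 8 measurable genes were higher on day 5 than in expansion and none was lower, beside 20.6% and 4.66% of all genes (10.8% and 9.62% with TMM scaling, where Id1 and Id3 dropped under 2-fold). The median log2 ratios were 1.53 for the 8 genes and 0.41 for all genes. From day 5 to day 25, Fst and Smad7 were higher and none of 8 was lower, beside 16.9% and 5.19% of all genes (10.2% and 11.4% with TMM scaling, where Smad6 was called lower). The median of the 8 was -0.17, against 0.25 for all genes.

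In Pou4f3-positive cells, 7 of 9 measurable genes were higher on day 5 than in expansion, beside 13.4% of all genes higher and 7.99% lower. With at least 2 Pou4f3 UMIs this call was left for 1 of 5 measurable genes, Smad7, beside 16.3% higher and 9.87% lower. From day 5 to day 25, 7 of 10 were lower and 1, Bmp2, was higher, beside 9.60% lower and 21.3% higher over all genes (12.1% and 17.3% with TMM scaling, where the Bmp2 call was lost). At the limit of 2 Pou4f3 UMIs, 4 of 6 measurable genes (Id1, Id2, Id3 and Tgfbi) were lower and Bmp2 was higher, beside 8.45% and 18.9%. The medians in the whole class were 2.09 for day 5 against expansion and -1.89 for day 25 against day 5, where all genes had 0.12 and 0.31.

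**Figure D1:**
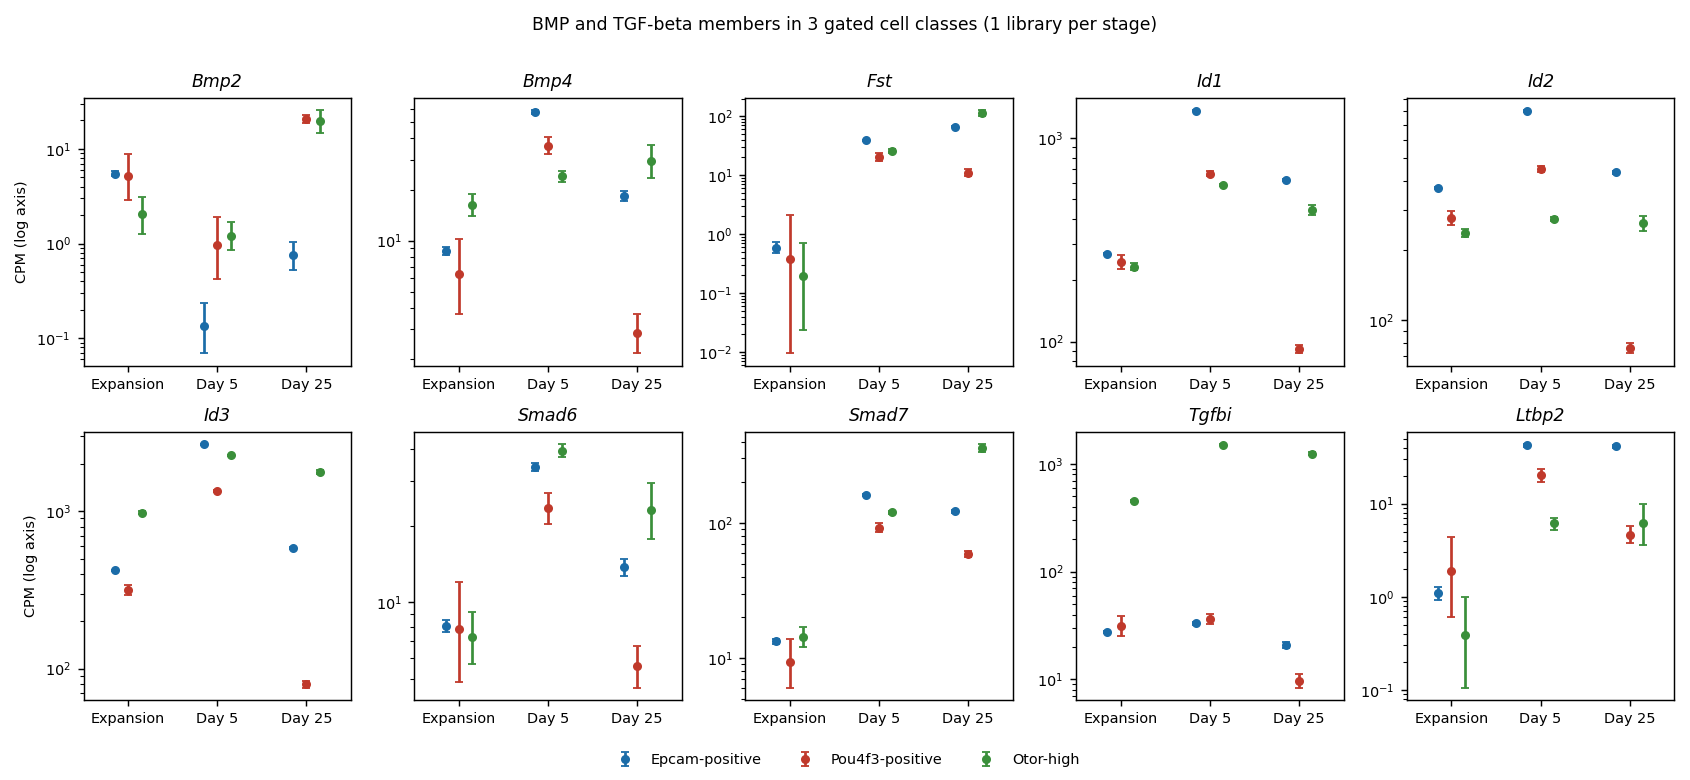
CPM (log axis) of the 10 genes in Epcam-positive, Pou4f3-positive and Otor-high cells of the expansion, day 5 and day 25 libraries; points are sums over the cells of 1 library, and bars are 95% counting intervals. Id1, Id2, Id3 and Smad6 peak on day 5 in Epcam-positive and Pou4f3-positive cells, Bmp2 rises to about 20 CPM only on day 25 in Pou4f3-positive and Otor-high cells, and Tgfbi stands apart in Otor-high cells at every stage. Pou4f3-positive cells are gated at 1 Pou4f3 UMI here. With at least 2 UMIs their Id2 was lower on day 5 (164.9 CPM) than in expansion (228.0 CPM).

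Of the ligands, Bmp4 was highest in epithelial cells on day 5. Its level in Epcam-positive cells was 8.66 CPM in expansion, 57.2 on day 5 and 18.3 on day 25, so that the day 5 library alone stood above 20 CPM. Day 5 was 6.61-fold above expansion (6.22 to 7.03) and day 25 was 3.13-fold below day 5 (2.91 to 3.37). In Otor-high cells Bmp4 was at 16.3, 24.0 and 29.6 CPM, within 2-fold between neighbouring stages. Its order of classes differed between stages. In expansion Otor-high cells were highest, at 16.3 CPM against 8.66 CPM in Epcam-positive cells, both under 20 CPM. Epcam-positive cells were highest on day 5, with Otor-high cells 2.39-fold lower (2.21 to 2.59). On day 25 Otor-high cells were again above Epcam-positive cells, by 1.62-fold (1.27 to 2.03), short of 2-fold.

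Pou4f3-positive cells held Bmp4 at 6.35, 36.2 and 2.84 CPM. The day 25 value was 12.7-fold under that of day 5 (9.59 to 17.2). With at least 2 Pou4f3 UMIs, the day 5 value was 7.06 CPM and the day 25 value 1.60 CPM, both under the 20 CPM needed for a call and 4.40-fold apart (2.55 to 7.60). On day 5, thinned to 2000 UMIs per cell, 8.30% of Epcam-positive cells (7.64 to 9.01) and 4.69% of Otor-high cells (4.06 to 5.39) had a Bmp4 UMI. Otof, a synaptic gene of hair cells, was seen in 0.561% of Epcam-positive and 38.8% of Pou4f3-positive cells on that day. Before thinning, these classes had medians of 6208 and 4696 UMIs per cell. The part of free RNA in the Bmp4 shares was not tested.

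Within the Epcam-positive cells of day 5, Bmp4 was concentrated in the range with a UMI of Gata2 (108.5 CPM, 1605 cells), against 33.6 CPM in cells with Epyc at 2000 CPM or more (3534 cells) and 31.3 CPM in the rest (1739 cells). These are ranges of marker levels, not cell types. They are disjoint and were set in the order Mki67 or Top2a, Epyc, Gata2, Lgr5, Krt18 and the rest. Cells with Gata2 that reached the Epyc limit were thus counted as Epyc-high. On day 25, the Epyc-high range had 34.8 CPM, the Gata2-positive range 24.9 CPM, and the Krt18-high, Lgr5-positive and remaining ranges between 4.03 and 9.68 CPM. Gata2-positive cells therefore held the most Bmp4 on day 5 and Epyc-high cells on day 25, with the gap between them smaller on day 25.

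Bmp2, a close relative of Bmp4, showed another pattern. In Epcam-positive cells its level was 5.49 CPM in expansion, 0.134 on day 5 and 0.760 on day 25, which is 41.0-fold lower on day 5 (23.4 to 79.8), and no library reached 20 CPM. Pou4f3-positive cells held 5.23 CPM in expansion (14 UMIs), 0.972 on day 5 (8 UMIs) and 20.9 on day 25 (426 UMIs). Day 25 was 21.5-fold above day 5 in these cells (10.8 to 50.1) and 27.4-fold above the Epcam-positive cells of its own library (19.5 to 39.7). Otor-high cells had 2.04, 1.21 and 19.7 CPM, the last just under the level needed for a call and 16.3-fold above day 5 (10.5 to 25.6). At the limit of 2 Pou4f3 UMIs the day 5 level was 1.88 CPM and day 25 was 12.3-fold above it (6.21 to 28.8), and with at least 5 it was 10.1-fold above (5.10 to 23.7). The call between days was lost with TMM scaling or a mitochondrial limit of 10% (log2 ratios 3.37 and 2.94, against 3.47). The call against Epcam-positive cells of day 25 was lost with TMM scaling, median-of-ratios scaling or that mitochondrial limit (3.52, 3.52 and 2.68, against 3.63).

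Among the Pou4f3-positive cells of day 25, Bmp2 was highest where hair cell genes were highest. It was 23.2 CPM with at least 2 Pou4f3 UMIs and 24.5 CPM with at least 5. In cells with a UMI of Slc26a5, which encodes the outer hair cell motor prestin, it was 25.7 CPM (1145 cells). It was 18.1 CPM in Insm1-positive cells, taken from those without Slc26a5 (54 cells, few UMIs). The other Pou4f3-positive cells had 2.89 CPM (638 cells). Of day 25 Pou4f3-positive cells thinned to 2000 UMIs, 2.42% (1.75 to 3.26) had a Bmp2 UMI, against 0.293% (0.141 to 0.539) of Epcam-positive and 3.78% (2.03 to 6.38) of Otor-high cells, so the gene was not limited to the hair cell class.

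Fst, which encodes the activin-binding antagonist follistatin, was nearly absent in expansion. It was at 0.592 CPM in Epcam-positive cells of that library, and at 0.374 CPM in Pou4f3-positive cells (1 UMI) and 0.194 CPM in Otor-high cells (2 UMIs). On day 5 the classes held 39.0, 20.5 and 25.6 CPM and on day 25 they held 67.1, 11.0 and 114 CPM, in the same order. In Epcam-positive cells, day 5 was 65.8-fold above expansion (53.4 to 82.1). The same ratio was 55.0 (9.73 to 2183) in Pou4f3-positive cells and 132 (36.4 to 1093) in Otor-high cells, both wide because they rest on 1 and 2 UMIs in expansion. Fst was at 7.76 CPM on day 5 when at least 2 Pou4f3 UMIs were required, the ratio to expansion was 12.5 (2.10 to 509.8), and no call was made.

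From day 5 to day 25, Fst was 4.45-fold higher in Otor-high cells (3.89 to 5.08), 1.72-fold higher in Epcam-positive cells (1.64 to 1.81) and 1.86-fold lower in Pou4f3-positive cells (1.52 to 2.28). The last was 1.22-fold lower with at least 2 Pou4f3 UMIs (0.803 to 1.81, within counting error) and 3.61-fold lower with at least 5 (2.14 to 6.04), and 1 cell held 74 of the 225 Fst UMIs of this class on day 25. The Epcam-positive level followed Epyc: on day 5 it was 58.7 CPM in the Epyc-high range, 18.5 in Gata2-positive cells and 15.6 in the rest. On day 25 it was 173.9 CPM in the Epyc-high range, 78.4 in Gata2-positive cells and 15.1 to 33.3 in the other ranges. Among the day 5 ranges, kept disjoint by their order, Gata2-positive cells were thus highest in the ligand Bmp4 and Epyc-high cells in the antagonist Fst. Slc26a5-positive cells of day 25 had 2.47 CPM of Fst and Insm1-positive cells had 0 UMIs.

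The Id genes peaked on day 5 in epithelial cells and were low in the hair cell class of day 25. In Epcam-positive cells Id1 was at 270.3, 1361 and 619.8 CPM in expansion, on day 5 and on day 25, Id2 at 372.5, 803.1 and 436.3 CPM, and Id3 at 421.8, 2656 and 586.6 CPM. Day 5 was the highest library for each of the 3. Day 5 was above expansion by 5.04-fold for Id1 (4.98 to 5.09), 2.16-fold for Id2 (2.13 to 2.18) and 6.30-fold for Id3 (6.24 to 6.35), and the Id2 call was lost with TMM scaling. After thinning, 90.3% of day 5 Epcam-positive cells (89.6 to 91.0) had an Id1 UMI and 96.4% (95.9 to 96.8) an Id3 UMI, against 40.1% and 51.5% in expansion, so the higher sums were spread over most cells. By day 25, Id1 was 2.20-fold (2.17 to 2.22) and Id3 4.53-fold (4.47 to 4.59) below day 5, and Id2 was 1.84-fold below (1.81 to 1.87).

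In Otor-high cells Id3 stayed high at all stages, at 980.6, 2275 and 1781 CPM, and was 2.33-fold above Epcam-positive cells in expansion (2.28 to 2.37) and 3.04-fold above them on day 25 (2.94 to 3.13). On day 5, when Epcam-positive cells were at 2656 CPM, the Otor-high level was 1.17-fold lower (1.16 to 1.18). Id1 was at 232.6, 588.2 and 441.8 CPM and Id2 at 239.0, 274.1 and 262.5 CPM in the same cells. Id2 differed by at most 1.15-fold between neighbouring stages there, whereas Id1 was 2.53-fold higher on day 5 than in expansion (2.42 to 2.64).

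Pou4f3-positive cells had Id levels within 2-fold of those of Epcam-positive cells in expansion and far below them on day 25. Id1 was at 245.5, 667.9 and 91.5 CPM, Id2 at 276.9, 451.0 and 75.5 CPM, and Id3 at 315.7, 1349 and 79.7 CPM. In expansion the ratios to Epcam-positive cells lay within 1.10-fold to 1.35-fold. With at least 2 Pou4f3 UMIs, Id1 was 1.12-fold (1.01 to 1.24), Id2 1.63-fold (1.47 to 1.81) and Id3 1.48-fold (1.35 to 1.62) lower there. On day 25, Id1 was 6.78-fold (6.47 to 7.10), Id2 5.78-fold (5.49 to 6.09) and Id3 7.36-fold (7.0 to 7.74) below Epcam-positive cells of the same library. The share of day 25 cells with an Id1 UMI after thinning was 8.83% (7.53 to 10.3) in Pou4f3-positive and 59.2% (57.6 to 60.9) in Epcam-positive cells.

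The day 5 values of this class depended on the gate. With at least 2 Pou4f3 UMIs, Id1 was at 278.1 CPM, Id2 at 164.9 and Id3 at 485.6 on day 5, while in expansion they were at 242.3, 228.0 and 285.6 CPM. None of the 3 was then called between these libraries, and Id2 was 1.38-fold lower on day 5 than in expansion (1.22 to 1.57). All 3 were below day 5 Epcam-positive cells, by 4.89-fold (4.62 to 5.19), 4.87-fold (4.52 to 5.25) and 5.47-fold (5.24 to 5.71). Otof moved the other way, from 286.7 to 514.3 CPM on day 5. By day 25 the stricter class held 36.8, 43.2 and 36.9 CPM, which is below its day 5 level by 7.56-fold (6.87 to 8.33), 3.82-fold (3.44 to 4.23) and 13.2-fold (12.1 to 14.4). The drop of the Id genes from day 5 to day 25 was thus seen at both limits, and the higher level of Id1 and Id3 on day 5 than in expansion past 2-fold only at the looser one.

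**Figure D2:**
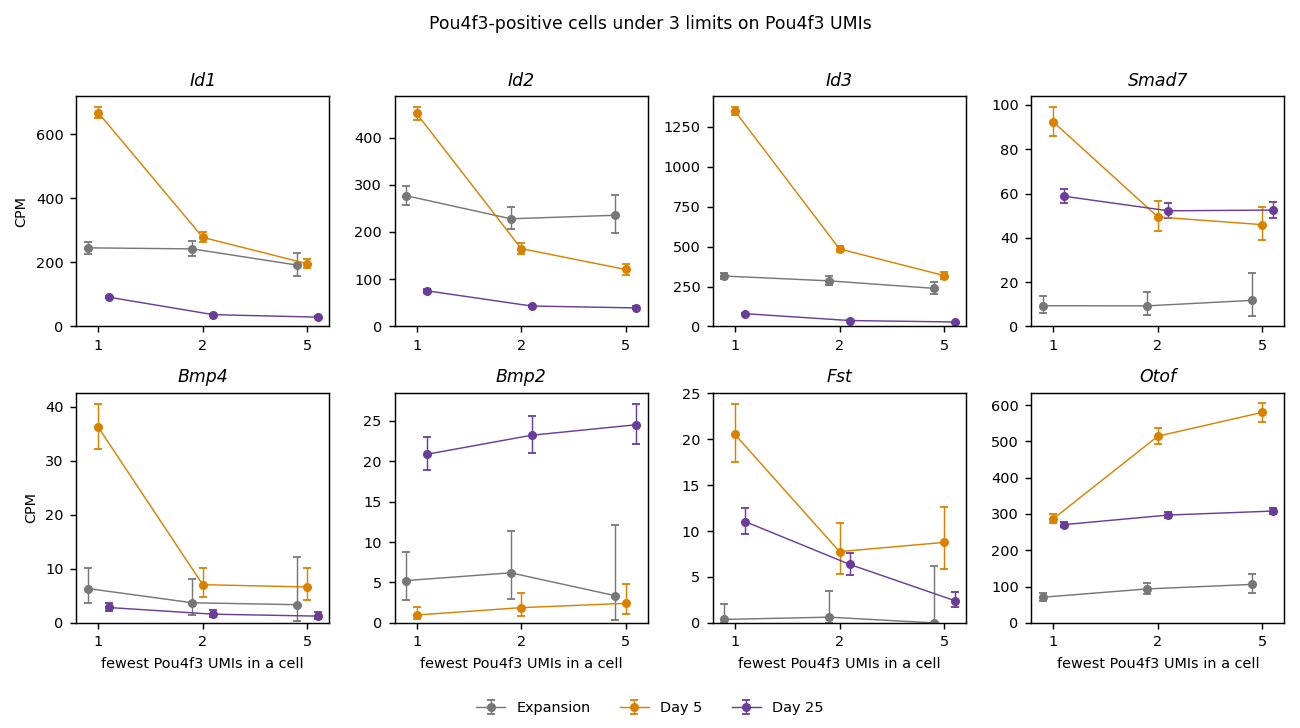
CPM of 7 of the genes and of the hair cell gene Otof in Pou4f3-positive cells when at least 1, 2 or 5 Pou4f3 UMIs were required, for each library; points are sums over cells, bars are 95% counting intervals, and the expansion point at 5 UMIs rests on 44 cells. Id1, Id2, Id3, Bmp4 and Fst of day 5 are lower at limits of 2 and 5 than at 1 while Otof is higher, and Bmp2 of day 25 stays between 20.9 and 24.5 CPM.

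Finer ranges showed the same separation. In day 25 Slc26a5-positive cells, Id1, Id2 and Id3 were at 26.9, 39.4 and 26.5 CPM, and in Insm1-positive cells at 15.9, 13.6 and 15.9 CPM. The Insm1-positive range of day 25 is small, and its values rest on few UMIs. The remaining Pou4f3-positive cells of day 25 had 346.0, 219.4 and 289.1 CPM, together with more Epyc (521.8 CPM) than Slc26a5-positive cells (40.8 CPM). Insm1 marks young hair cells and neurons, and on day 5 its 59 cells had Id1 at 189.8, Id2 at 114.9 and Id3 at 279.1 CPM. In the Epcam-positive cells of day 25, Id1 ranged from 380.0 CPM in the Krt18-high range to 661.9 CPM in the Epyc-high range, so no epithelial range came near the level of the Slc26a5-positive cells.

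**Figure D3:**
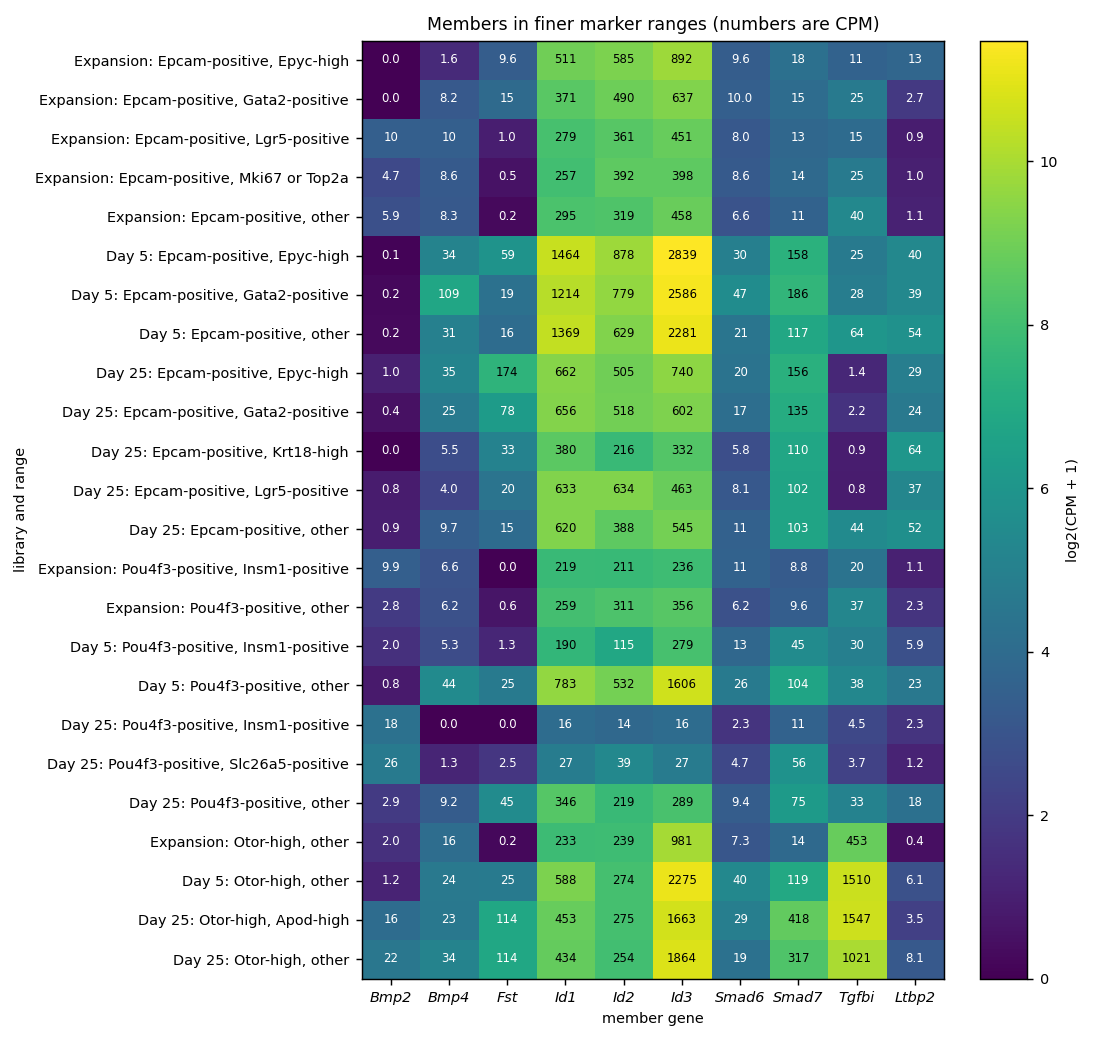
Level of the 10 genes in 24 marker ranges of at least 50 cells (rows, named by library and range), coloured by log2(CPM + 1) and labelled with CPM. Day 25 Slc26a5-positive and Insm1-positive cells are lowest in Id1, Id2 and Id3 and have 25.7 and 18.1 CPM of Bmp2, and Otor-high rows stand out in Tgfbi. The day 25 Insm1-positive values rest on few UMIs.

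The inhibitory Smads were both low in expansion. Smad6, which acts mainly on BMP signalling, was at 8.05, 34.0 and 13.7 CPM in Epcam-positive cells, at 7.85, 23.4 and 5.59 in Pou4f3-positive cells and at 7.27, 39.5 and 23.0 in Otor-high cells. Day 5 was the highest library in each class. It exceeded expansion by 4.22-fold in Epcam-positive cells (3.95 to 4.52) and by 5.44-fold in Otor-high cells (4.30 to 6.96). The Pou4f3-positive ratio was 2.99-fold (1.90 to 4.94) and, with at least 2 Pou4f3 UMIs, the day 5 level was 13.9 CPM and made no call. Day 25 was 2.48-fold below day 5 in Epcam-positive cells (2.28 to 2.70) and 1.72-fold below in Otor-high cells (1.33 to 2.25).

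Smad7, which acts on both branches, was at 13.4, 160.1 and 122.3 CPM in Epcam-positive cells, at 9.34, 92.3 and 58.8 in Pou4f3-positive cells and at 14.3, 119.5 and 358.9 in Otor-high cells. Every class was therefore lowest in expansion, and Otor-high cells alone were highest on day 25. Day 5 exceeded expansion by 12.0-fold (11.4 to 12.6), 9.88-fold (6.64 to 15.4) and 8.33-fold (7.06 to 9.88) in these classes, and by 5.32-fold (3.15 to 9.67) in cells with at least 2 Pou4f3 UMIs. From day 5 to day 25, Smad7 was 3.00-fold higher in Otor-high cells (2.80 to 3.23), 1.31-fold lower in Epcam-positive cells (1.27 to 1.35) and 1.57-fold lower in Pou4f3-positive cells (1.43 to 1.72). The last ratio was 1.06 (0.909 to 1.23, higher on day 25) with at least 2 Pou4f3 UMIs. Unlike the Id genes, Smad7 was still at 55.9 CPM in day 25 Slc26a5-positive cells.

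Tgfbi, named for its induction by TGF-beta, was a gene of the Otor-high cells. Its level there was 453.1 CPM in expansion, 1510 on day 5 and 1239 on day 25, and in Epcam-positive cells it was 27.6, 33.1 and 21.0 CPM. Otor-high cells thus exceeded Epcam-positive cells by 16.4-fold (15.7 to 17.1), 45.6-fold (43.9 to 47.3) and 59.0-fold (55.0 to 63.4). Within the Otor-high class, day 5 was 3.33-fold above expansion (3.23 to 3.44) and day 25 was 1.22-fold below day 5 (1.18 to 1.26). After thinning, a Tgfbi UMI was seen in 56.7%, 89.8% and 81.4% of Otor-high cells, while Pou3f4 was seen in 24.8%, 42.4% and 33.4%.

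The low Tgfbi level in other classes was uneven. In day 25 Epcam-positive cells it was 0.806 to 2.19 CPM in the Epyc-high, Gata2-positive, Krt18-high and Lgr5-positive ranges and 43.9 CPM in the rest, where Pou3f4 was 5.26 CPM against at most 0.625 CPM in the others. With at least 2 Epcam UMIs the day 25 level fell from 21.0 to 6.51 CPM, although only 114 of 3605 cells were left out. The contribution of Otor-high cells or their free RNA to these values was not tested. The day 25 level was called lower than that of day 5 at 2 Epcam UMIs and with the Otor limit at 1000 CPM. In Pou4f3-positive cells Tgfbi was at 31.4, 36.4 and 9.70 CPM, and with at least 2 Pou4f3 UMIs it was at 32.9 CPM on day 5. The ratio of Pou4f3-positive to Epcam-positive cells on day 25 was 2.16-fold lower (1.86 to 2.53) and turned in sign, to a log2 value of 0.51, with at least 2 Epcam UMIs.

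Ltbp2, which encodes a protein of elastic microfibrils in the family named latent TGF-beta binding proteins, was mostly epithelial. It was at 1.09, 42.1 and 41.1 CPM in Epcam-positive cells, at 1.87 (5 UMIs), 20.0 and 4.65 in Pou4f3-positive cells and at 0.388 (4 UMIs), 6.12 and 6.21 in Otor-high cells. Day 5 was 38.5-fold above expansion in Epcam-positive cells (33.0 to 45.3), and day 25 was within counting error of day 5 (1.02-fold lower, 0.969 to 1.08). Otor-high cells were below Epcam-positive cells by 6.87-fold on day 5 (5.92 to 8.02) and 6.62-fold on day 25 (4.12 to 11.4). Unlike Fst, Ltbp2 was higher in the Krt18-high range on day 25 (64.2 CPM) than in the Epyc-high range (28.5 CPM). Its Pou4f3-positive day 5 value of 20.0 CPM sat on the limit for a call, the call was lost with TMM scaling, and with at least 2 Pou4f3 UMIs it was 7.06 CPM.

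**Figure D4:**
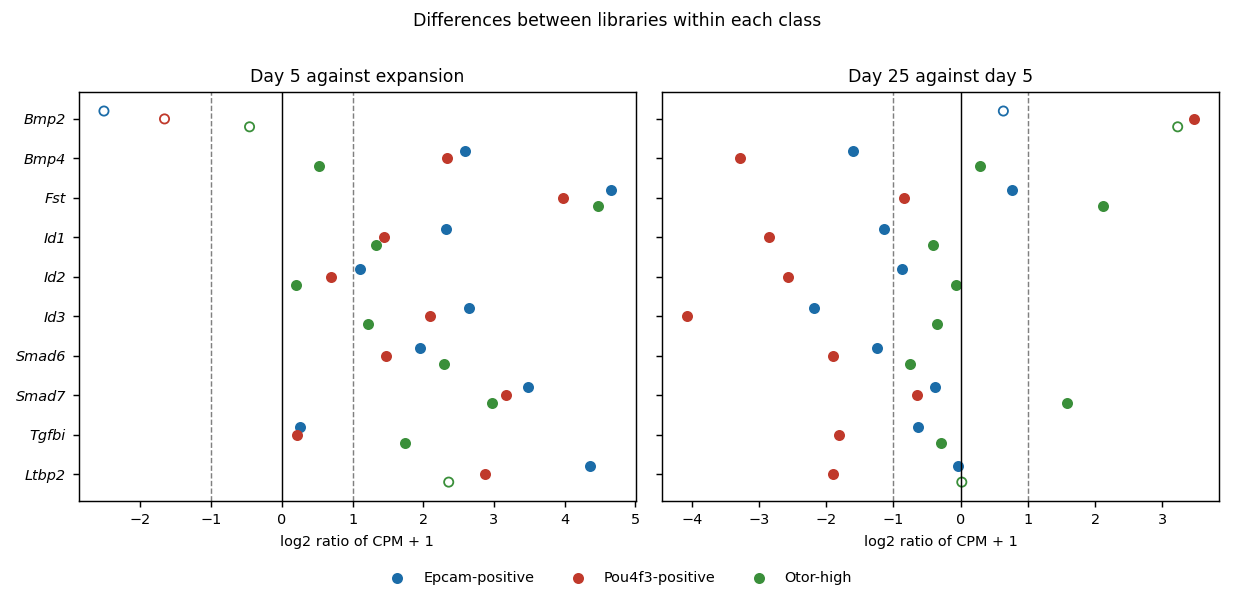
log2 ratio of CPM + 1 for each gene between day 5 and expansion (left) and between day 25 and day 5 (right), in the 3 classes; filled points reached 20 CPM in either sum, open points did not, and dashed lines mark 2-fold. Left, most filled points lie beyond 2-fold on the higher side. Right, Id3, Bmp4, Id1 and Id2 of Pou4f3-positive cells lie furthest to the lower side, in that order. Fst and Smad7 of Otor-high cells lie beyond 2-fold on the higher side there.

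Classes were also compared within each library. In expansion, 0 of 4 measurable genes were called between Pou4f3-positive and Epcam-positive cells, beside 8.00% of all genes higher and 0.591% lower, and Id3 and Tgfbi of 4 were higher in Otor-high than in Epcam-positive cells, beside 4.44% higher and 12.5% lower. No test was run for any of these counts. On day 5, Id1 and Ltbp2 of 9 were lower in Pou4f3-positive cells, beside 11.8% higher and 3.08% lower. The other 7 included Bmp4, Fst, Id2 and Id3 at 1.58-fold to 1.97-fold lower, and with at least 2 Pou4f3 UMIs 8 of 9 were lower, beside 20.2% higher and 16.2% lower. In Otor-high cells of day 5, Tgfbi was higher and Bmp4, Id1, Id2 and Ltbp2 were lower of 9, beside 10.8% and 11.6%.

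On day 25, 7 of 8 measurable genes (Fst, Id1, Id2, Id3, Smad7, Tgfbi and Ltbp2) were lower and Bmp2 was higher in Pou4f3-positive than in Epcam-positive cells, beside 16.6% lower and 18.7% higher over all genes, the Bmp2 call being lost under the settings given for it above. Bmp4 and Smad6, at 6.43-fold (4.93 to 8.54) and 2.45-fold lower (2.01 to 3.02), were under 20 CPM in both classes. The calls for Smad7 and Tgfbi lay just past 2-fold and were lost with a pseudocount of 5 CPM, and those for Fst, the Id genes and Ltbp2 at 5.78-fold to 8.83-fold. The Tgfbi call was also lost with a mitochondrial limit of 10%, with Otor at 1000 CPM and with at least 2 Epcam UMIs. At this Epcam limit its ratio turned in sign. In Otor-high cells of day 25, Id3, Smad7 and Tgfbi of 9 were higher and Ltbp2 was lower than in Epcam-positive cells, beside 12.4% and 12.7%.

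Other genes of the pathways, from lists written with earlier results known, placed these values in context. Among BMP family ligands, Bmp7 was epithelial (81.0, 144.1 and 142.4 CPM in Epcam-positive cells), Bmp6 was 4.46-fold higher in those cells on day 5 than in expansion (8.34, 37.2 and 41.2 CPM), and Bmp5 belonged to Otor-high cells (18.5, 42.9 and 162.5 CPM). Of the 8 ligands listed, 2 were measurable in Epcam-positive and 1 in Otor-high cells between stages, so most BMP ligand genes were below 20 CPM throughout. Among TGF-beta and activin ligands, Tgfb2 in Epcam-positive cells was at 485.1, 1478 and 633.8 CPM, 3.05-fold above expansion on day 5 (3.02 to 3.07) and 2.33-fold below day 5 on day 25 (2.30 to 2.36). Inhba, an activin subunit, ran against it, at 51.7 CPM in expansion and 18.5 on day 5. Tgfb1 in Otor-high cells was at 1.36, 24.3 and 90.9 CPM. In Epcam-positive cells 1 of the 4 measurable ligands of this list was higher and 1 was lower on day 5 than in expansion, beside 14.5% and 10.5% of all genes (median log2 ratio -0.06 against 0.10).

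Receptor and signal-carrying Smad genes made no call between expansion and day 5 in epithelial cells. Of 3 measurable BMP receptor genes, 1 TGF-beta or activin receptor gene and 4 Smads, none was called in Epcam-positive cells (medians 0.04, 0.80 and 0.06, against 0.10 for all genes). From day 5 to day 25, 3 of 4 BMP receptor genes were higher, beside 18.5% of all genes, among them Bmpr2 (35.7, 29.1 and 74.0 CPM), with a median of 1.33 against 0.27 for all genes. The same list had 3 of 3 measurable genes higher in Pou4f3-positive cells, beside 21.3% of all genes (median 1.45 against 0.31), where Bmpr2 was at 43.7, 41.8 and 115.6 CPM. These Pou4f3-positive values are for the limit of 1 Pou4f3 UMI only. In Otor-high cells 3 of 4 TGF-beta and activin receptor genes were higher on day 25 than on day 5, beside 16.9% of all genes (median 1.51 against 0.25), among them Tgfbr2 (10.4, 37.7 and 101.1 CPM) and Tgfbr3 (5.23, 18.8 and 85.4 CPM).

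Of the further BMP targets, Id4 did not follow the other Id genes. It was at 44.9, 60.8 and 267.4 CPM in Epcam-positive cells and at 66.9, 101.2 and 355.6 CPM in Pou4f3-positive cells, 4.40-fold (4.26 to 4.54) and 3.51-fold (3.27 to 3.78) higher on day 25 than on day 5. Pou4f3-positive cells of day 25, which were low in Id1, Id2 and Id3, were thus not low in Id4. Otor-high cells held at most 11.0 CPM of it. Among antagonists other than Fst, Nbl1 differed most between stages in Otor-high cells, at 14.5, 89.0 and 187.7 CPM, and 9 of the 12 antagonists listed, Nog and Chrd among them, stayed under 20 CPM in Otor-high cells.

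The further TGF-beta targets were highest in the Otor-high cells of day 25, in a medium whose list includes A83-01. On day 5, 6 of 6 measurable targets were higher there than in expansion, beside 20.6% of all genes, and from day 5 to day 25, 5 of 7 were higher and none lower, beside 16.9% and 5.19%, with medians of 3.22 and 2.49 against 0.41 and 0.25 for all genes. Ctgf (also called Ccn2), a matricellular gene, went from 1.36 to 27.8 and 597.3 CPM, 21.5-fold between days 5 and 25 (19.7 to 23.4). Pmepa1, a feedback inhibitor of the branch, was at 9.79, 120.4 and 633.9 CPM. In Epcam-positive cells, 3 of 4 targets were higher on day 5 than in expansion and 2 of 4 on day 25 than on day 5, beside 14.5% and 18.5% of all genes (medians of 1.51 and 1.32 against 0.10 and 0.27), with Ctgf at 7.59, 56.3 and 183.7 CPM.

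Of the latent TGF-beta matrix genes, Ltbp3, Ltbp4 and Fbn2 had their highest level on day 5 in all 3 classes. Ltbp3, Ltbp4 and Fbn2 were higher on day 5 than in expansion in Epcam-positive and Otor-high cells and lower on day 25 than on day 5 in all 3 classes. In Epcam-positive cells Ltbp3 was at 42.4, 202.0 and 86.5 CPM and Fbn2 at 33.3, 80.3 and 13.6 CPM, while Ltbp2 kept its day 5 level. Of the 4 measurable genes of the list, 3 were higher on day 5 and 3 lower on day 25 in Epcam-positive cells, beside 14.5% and 5.33% of all genes, with medians of 1.74 and -1.34 against 0.10 and 0.27. In Otor-high cells Ltbp1, another gene of the list, was called higher on day 25, at 91.6 CPM against 20.6 on day 5. With TMM scaling, 2 of 3 measurable genes were higher on day 5 in Otor-high cells, beside 10.8% of all genes. In cells with at least 2 Pou4f3 UMIs, 1 of 3 was higher on day 5, beside 16.3% of all genes.

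Immediate early genes, which respond within minutes to stimulation and to cell dissociation, differed between the libraries in the same direction as the day 5 values above. All 7 listed (Fos, Fosb, Jun, Junb, Egr1, Atf3 and Ier2) were higher on day 5 than in expansion in Epcam-positive and in Otor-high cells, beside 14.5% and 20.6% of all genes, with medians of 2.72 and 2.91 against 0.10 and 0.41. With TMM scaling 6 of the 7 remained called in Epcam-positive cells, beside 10.5% of all genes higher. Junb went from 83.2 to 1147 CPM and on to 1359.6 CPM in Epcam-positive cells, and Atf3 from 14.8 to 33.1 and 1368 CPM. In cells with at least 2 Pou4f3 UMIs, 3 of 6 were higher on day 5, beside 16.3% of all genes, and all 7 were lower there than in Epcam-positive cells of day 5, beside 16.2%. Their part in the day 5 levels of the 10 genes was not tested.

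Across the 24 finer ranges, the likeness of the 10 genes to each other was described with Pearson's r of log2(CPM + 1). No p is given because the ranges of 1 library, though disjoint, share medium and depth and are not replicates. The closest pairs were Id1 with Id2 (0.94), Id1 with Id3 (0.91), Fst with Smad7 (0.88) and Bmp4 with Smad6 (0.87). Bmp2 ran against Id1 (-0.69). Among 8534 genes with at least 20 CPM in at least 3 ranges, those most like Smad7 were Junb, Igf1 and Abca1 (0.96, 0.96 and 0.95), and those most like Bmp4 were Smad6, Itpripl2 and Id3 (0.87, 0.85 and 0.84). Tgfbi was most like Kcnk2, Pou3f4 and Emcn (0.97 each), Ltbp2 most like Pgm5, Penk and Gsn (0.95, 0.95 and 0.94), and Fst most like Parp3, Hspb1 and Nfkbiz (0.93, 0.93 and 0.92). Id1 was most like Boc, Speg and Gng5 (0.95 each), Id2 most like Parva, Tnfrsf19 and Mgst1 (0.96, 0.95 and 0.94), and Id3 most like Cpne8, Mfap2 and Irx3 (0.95, 0.94 and 0.93). Smad6 was closest to Trim35, Tbc1d9b and Mfap2 (0.88, 0.88 and 0.87), and Bmp2, which itself missed the level filter, to Klhdc2, Hs3st3b1 and Baz1a (0.85, 0.81 and 0.81).

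The 10 genes lie on 7 chromosomes of GRCm38 in the GENCODE vM21 annotation and are all protein-coding. Bmp2 (2:133552159-133562885) and Id1 (2:152736251-152737410) share chromosome 2, Fst (13:114452290-114458951) and Tgfbi (13:56609523-56639562) share chromosome 13, and Id2 (12:25093799-25097140) and Ltbp2 (12:84783212-84876532) share chromosome 12. Bmp4 (14:46383520-46390669), Id3 (4:136143497-136145755), Smad6 (9:63953076-64022059) and Smad7 (18:75367529-75395935) stand alone on theirs. A 3' library counts the end of each transcript, so isoforms of a gene are summed in these values.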

How the data were processed

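Single-cell RNA was measured in 3 libraries (10x Genomics Single Cell 3' v3), 1 per stage. The authors' deposited matrices hold raw UMI counts per gene and barcode, for which the file headers give Cell Ranger 3.0.1 (expansion and day 5) and 3.1.0 (day 25). GRCm38 and hg38 appear as builds in the submitters' processing notes, and the gene tables hold mouse genes. Annotation release and cell calling settings are not given in the sources used here, and a change of Cell Ranger version between libraries can shift counts.

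Barcodes numbered 29098, 14452 and 6613. Those with under 500 genes or over 20% mitochondrial UMIs were left out, as were doublets called by Scrublet in scanpy 1.11.5, whose calls (6.96%, 4.69% and 2.52%) fell short of the expected rates of 22.4%, 11.1% and 5.01%, so that doublets are still present. Otor-high cells held Otor at 2000 CPM and 5 UMIs or more, Epcam under 500 CPM and no Pou4f3 UMI. Pou4f3-positive and Epcam-positive cells were below the Otor limit, and Epcam-positive cells held no Pou4f3. Mixed cells (68, 132 and 19) and cells in no class (6023, 1159 and 296) were left out.

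Counts were summed per class and library and divided by total UMIs. Intervals are exact Poisson for CPM, exact conditional for ratios and exact Clopper-Pearson for shares (95%), the last in cells thinned to 2000 UMIs. They cover counting error only, and the samples' spread is unknown with 1 library per group. For a count of 0, a floor of 3 UMIs was taken, which is not the upper end of the exact Poisson interval. Calls needed a 2-fold difference of CPM + 1 and 20 CPM in either sum, and mitochondrially encoded genes were left out. Alternatives were a pseudocount of 5 CPM, TMM (edgeR 4.0.16) or median-of-ratios scaling, a filter at 1 CPM, doublets kept, a mitochondrial limit of 10%, cells with at least 2000 UMIs and other gates. The gate at 5 Pou4f3 UMIs was added after seeing the data.

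The genes and lists were chosen with earlier results of these data known. The text names all 10 genes, from each pathway list the genes with the largest log2 ratios in a comparison, and for each gene the 3 most like it. Nog, Chrd and the full set of immediate early genes were named in addition after their values were seen.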

Additional observations from a re-analysis of the deposited data

Results flagged for a closer look

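Fst and Smad7 moved in opposite directions in different classes of cells between day 5 and day 25, beyond counting error when 1 Pou4f3 UMI was required. For Fst the log2 ratio of CPM + 1 was 2.11 in Otor-high cells and 0.77 in Epcam-positive cells, both higher on day 25, and -0.84 in Pou4f3-positive cells, lower on day 25. For Smad7 it was 1.58 in Otor-high cells, against -0.39 in Epcam-positive and -0.64 in Pou4f3-positive cells. The difference between the classes was not tested, because each stage is 1 library. With at least 2 Pou4f3 UMIs the Pou4f3-positive values were -0.25 for Fst and 0.08 for Smad7, both within counting error, so the opposite direction of Smad7 was then left to Epcam-positive cells. With at least 5 they were -1.51 and 0.19, and 1 cell held 74 of the 225 Fst UMIs of the Pou4f3-positive class on day 25.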

How the results depend on the processing

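No paired analysis was possible because each group holds 1 library, and its replicate number is only a name. No library could be left out for the same reason. Of 56 calls for the 10 genes, 50 were kept with TMM scaling, 50 with median-of-ratios scaling, 53 with a pseudocount of 5 CPM, 56 with a filter at 1 CPM, 53 with doublets kept, 51 with a mitochondrial limit of 10%, 54 with cells of at least 2000 UMIs, 47 with at least 2 Pou4f3 UMIs, 55 with at least 2 Epcam UMIs, 53 with Otor at 1000 CPM and 54 with Otor at 5000 CPM.

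Counts of called genes changed past 1.5-fold as follows. With at least 2 Pou4f3 UMIs, day 5 against expansion went from 7 to 1, day 25 against day 5 from 8 to 5 and Pou4f3-positive against Epcam-positive cells on day 5 from 2 to 8. With at least 5 Pou4f3 UMIs the last 2 comparisons gave 5 and 8. Of 7160 genes in the day 25 against day 5 comparison, 1314 were then higher and 630 lower. Of 7148 genes between the classes on day 5, 1592 were higher and 1211 lower in Pou4f3-positive cells. Expansion had too few cells (44) for a value at this limit. The day 5 count of 2 was 1 with a pseudocount of 5 CPM or doublets kept, and 0 with a mitochondrial limit of 10% or at least 2000 UMIs per cell. Otor at 5000 CPM raised day 25 against day 5 in Otor-high cells from 2 to 4. The share over all genes was not computed for the pseudocount, doublet, mitochondrial, depth and Otor settings. The 1 called value that turned in sign was Tgfbi in Pou4f3-positive against Epcam-positive cells of day 25, at 0.51 with at least 2 Epcam UMIs. The causes were not tested.

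TMM scaling moved the median log2 ratio of all genes from 0.10 to -0.14 (day 5 against expansion, Epcam-positive), 0.41 to -0.02 (the same, Otor-high), 0.27 to 0.03, 0.31 to 0.16 and 0.25 to -0.07 (day 25 against day 5 in Epcam-positive, Pou4f3-positive and Otor-high cells). Levels under 20 CPM rest on few UMIs in the smaller classes, and no alternative stands in for the missing replicates.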
